A study of Mus musculus with 8 samples.

Results

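The AP-1 subunit genes are the 10 mouse genes Fos, Fosb, Fosl1, Fosl2, Jun, Junb, Jund, Batf, Batf3 and Atf3. They were taken by name, not by a measured value, out of 37252 annotated genes on the 20 chromosomes of the peak lists, 22350 of them protein-coding. All 10 were found in the mm9 annotation. For each gene the NFATc2 summits within 100 kb of a transcription start site (TSS) were collected, together with the H3K4me3 peaks that overlapped the gene or lay within 1 kb of a TSS.

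AP-1 is a family of dimers of basic leucine zipper proteins, in which a Fos, Batf or Atf protein usually pairs with a Jun protein, and it binds a short palindrome with the core TGANTCA. NFAT proteins are held in the cytoplasm until the calcium-dependent phosphatase calcineurin removes phosphates from them, and in lymphocytes they often bind DNA next to AP-1 on cytokine genes. Many AP-1 genes are immediate early genes, transcribed within minutes of a stimulus from promoters that are already open, and H3K4me3 is the histone mark found around the start sites of such open and active promoters.

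The study mapped NFATc2 (also named NFAT1) and H3K4me3 by ChIP-seq in D1 cells, a long-term dendritic cell line from the spleen of C57BL/6 mice that is kept in medium with GM-CSF. NFATc2 was pulled down through a V5 tag from D1 cells that had been given the tagged protein with a lentivirus and had been sorted for low GFP, 30 min after 10 μg/ml of the β-glucan curdlan, which stimulates the receptor dectin-1, was added. H3K4me3 was mapped in non-treated (NT) cells, in cells given 10 μg/ml curdlan for 2 h, and in cells given the same 2 h of curdlan together with the calcineurin inhibitor FK506. The last of these is called the FK506 library here. With a single ChIP library and its input in each of these 4 conditions, replicate error is unknown. NFATc2 binding has no unstimulated or FK506-treated counterpart here and was measured on the introduced, tagged protein.

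The ChIP libraries held 14377535 to 21289349 tags, of which 5.58% lay in peaks for NFATc2 and 51.3% to 57.9% for H3K4me3. The labelled cell type was checked with marker genes. All 10 dendritic and myeloid markers found in the annotation had an H3K4me3 peak in NT cells, among them Itgax, Clec7a (dectin-1), Ptprc and Zbtb46. Of 10 markers of other cell types only Pax5 had one, at 12.1 tags per 1000000 ChIP tags, while Cd3e, Alb and the others had none.

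The sequences under 6 NFATc2 summits near AP-1 genes are shown first, because they hold the recognition core of the AP-1 proteins that these genes encode. They are 151 bp windows centred on the summit, read from the mm9 (NCBIM37) genome, and none of them overlaps an annotated exon. Capitals mark GGAAAA (or TTTTCC, its reverse complement), the core of the NFAT site, and TGANTCA, the core of the AP-1 site. The windows with both cores are given, and for the other genes the tallest summit that holds the AP-1 core.
Fosl2 summit 83.9 kb upstream, chr5:32354897-32355047 (plus strand): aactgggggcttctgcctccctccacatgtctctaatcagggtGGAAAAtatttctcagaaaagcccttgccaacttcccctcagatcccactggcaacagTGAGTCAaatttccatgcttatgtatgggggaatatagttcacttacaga
Fosl1 summit 64.6 kb downstream, chr19:5512184-5512334 (plus strand): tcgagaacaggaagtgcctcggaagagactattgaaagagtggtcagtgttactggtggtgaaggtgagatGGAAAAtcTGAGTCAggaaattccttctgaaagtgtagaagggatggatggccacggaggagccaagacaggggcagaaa
Batf summit 88.7 kb upstream, chr12:86938874-86939024 (plus strand): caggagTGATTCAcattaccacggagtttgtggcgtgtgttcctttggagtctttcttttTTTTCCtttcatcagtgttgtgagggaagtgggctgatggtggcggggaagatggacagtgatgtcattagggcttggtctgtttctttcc
Atf3 summit 10.5 kb upstream, also 95.5 kb downstream of Batf3, chr1:193017673-193017823 (plus strand): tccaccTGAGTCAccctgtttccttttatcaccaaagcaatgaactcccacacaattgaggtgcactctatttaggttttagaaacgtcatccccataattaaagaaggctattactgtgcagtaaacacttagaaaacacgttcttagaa
Jun summit 49.9 kb upstream, chr4:94768710-94768860 (plus strand): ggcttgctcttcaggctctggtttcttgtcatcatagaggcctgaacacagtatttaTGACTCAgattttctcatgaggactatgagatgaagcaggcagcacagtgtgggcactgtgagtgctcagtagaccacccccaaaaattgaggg
Fos summit 36.1 kb upstream, chr12:86778640-86778790 (plus strand): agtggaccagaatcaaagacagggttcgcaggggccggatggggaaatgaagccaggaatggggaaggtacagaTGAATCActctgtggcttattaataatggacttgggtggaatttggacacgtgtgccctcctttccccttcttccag

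Within 100 bp of the 36 distinct summits near AP-1 genes, GGAAAA was found at 13 (36.1%) on either strand, against 45.6% of all 9438 NFATc2 summits. TGANTCA was found at 9 (25%), against 21.8% of all summits. The 2 cores stood together at 3 of the 36 summits, against 8.34% of all summits, and these 3 are the windows of Fosl2, Fosl1 and Batf printed above. In the Fosl1 window only 2 bp separated GGAAAA from TGANTCA, while the gap was 47 bp in the Batf window and 52 bp in the Fosl2 window. A match of letters is a description and does not show that a protein sat on them.

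The promoters of Fos, Fosb, Jun and Batf are printed because NFATc2 or H3K4me3 values described below lie at them. Each is the 250 bp before the most 5′ TSS, written on the strand of the gene. Capitals mark TGACG and its longer form TGACNTCA, and also the AP-1 core TGANTCA and the NFAT core, on either strand. TGACG is part of the cyclic AMP response element that CREB and ATF proteins bind, and it is contained in TGACNTCA where N is G.
Fos promoter, chr12:86814590-86814839 (plus strand): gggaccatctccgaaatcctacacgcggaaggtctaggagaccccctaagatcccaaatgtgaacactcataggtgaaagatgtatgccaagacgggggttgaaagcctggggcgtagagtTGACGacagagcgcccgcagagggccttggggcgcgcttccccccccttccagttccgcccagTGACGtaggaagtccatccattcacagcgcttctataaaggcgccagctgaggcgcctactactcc
Fosb promoter, chr7:19895395-19895644 (minus strand): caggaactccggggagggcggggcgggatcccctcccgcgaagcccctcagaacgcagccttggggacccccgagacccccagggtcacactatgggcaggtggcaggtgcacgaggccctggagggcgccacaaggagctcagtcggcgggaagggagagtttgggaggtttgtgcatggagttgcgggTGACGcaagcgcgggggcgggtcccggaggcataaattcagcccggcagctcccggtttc
Jun promoter, chr4:94718914-94719163 (minus strand): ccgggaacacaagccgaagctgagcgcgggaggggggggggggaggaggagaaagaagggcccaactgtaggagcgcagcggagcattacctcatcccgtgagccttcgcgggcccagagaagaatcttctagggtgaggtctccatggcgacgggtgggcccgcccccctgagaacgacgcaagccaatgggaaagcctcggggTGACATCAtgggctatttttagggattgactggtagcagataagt
Batf promoter, chr12:87027369-87027618 (plus strand): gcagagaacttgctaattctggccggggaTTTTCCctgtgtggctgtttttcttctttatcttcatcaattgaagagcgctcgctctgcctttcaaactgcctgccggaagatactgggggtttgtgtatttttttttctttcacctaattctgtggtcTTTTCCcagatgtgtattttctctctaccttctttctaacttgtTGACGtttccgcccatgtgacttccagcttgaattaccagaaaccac

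Over the 10 promoters, TGACG was found in 5 (Fos, Fosb, Fosl1, Junb and Batf), against 19.4% of the promoters of all protein-coding genes. Fos held it at positions -129 and -66 from the TSS, Fosb at -60 and Batf at -47. The Jun promoter held TGACATCA, a TGACNTCA match, at -45, and 7.13% of all promoters held such a match. GGAAAA was found only in the Batf promoter, at -221 and -91 and as TTTTCC each time, against 20.7% of all promoters. TATAAA was found in Fos at -33 and Junb at -30, against 12.3% of all promoters. None of the 10 promoters held TGANTCA (6.00% of all promoters) or a CArG box, the site of serum response factor (1.34% of all promoters), in these 250 bp. The promoters of Fosl2, Jund, Batf3 and Atf3 held none of the 6 motifs searched. Jund has 2 annotated TSSs, and only the 250 bp before the most 5′ TSS were searched. With curdlan, its larger H3K4me3 peak began 1.35 kb downstream of that TSS.

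NFATc2 peaks lay within 100 kb of most AP-1 genes but rarely at their start sites. A summit was found within 100 kb of a TSS for 9 of the 10 genes, where 55.4% of all protein-coding genes had one. The share was also high for 20 of 23 other basic leucine zipper genes and for 14 of 16 kinases and factors that act on AP-1 genes. All 5 factors that share composite sites with AP-1 had a summit as well. So did 8 of 10 dendritic and myeloid markers, but only 4 of 10 markers of other cell types. Within 10 kb the count for AP-1 genes was 3 of 10 (Fos, Fosl2 and Batf3) against 16.3%, and within 1 kb it was 1 of 10 (Fos) against 5.29%. In all there were 40 pairs of a gene and a summit, 24 upstream and 16 downstream, with a median distance of 62.4 kb. An AP-1 gene had a median of 4.5 summits within 100 kb, and a protein-coding gene a median of 1.

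**Figure D1:**
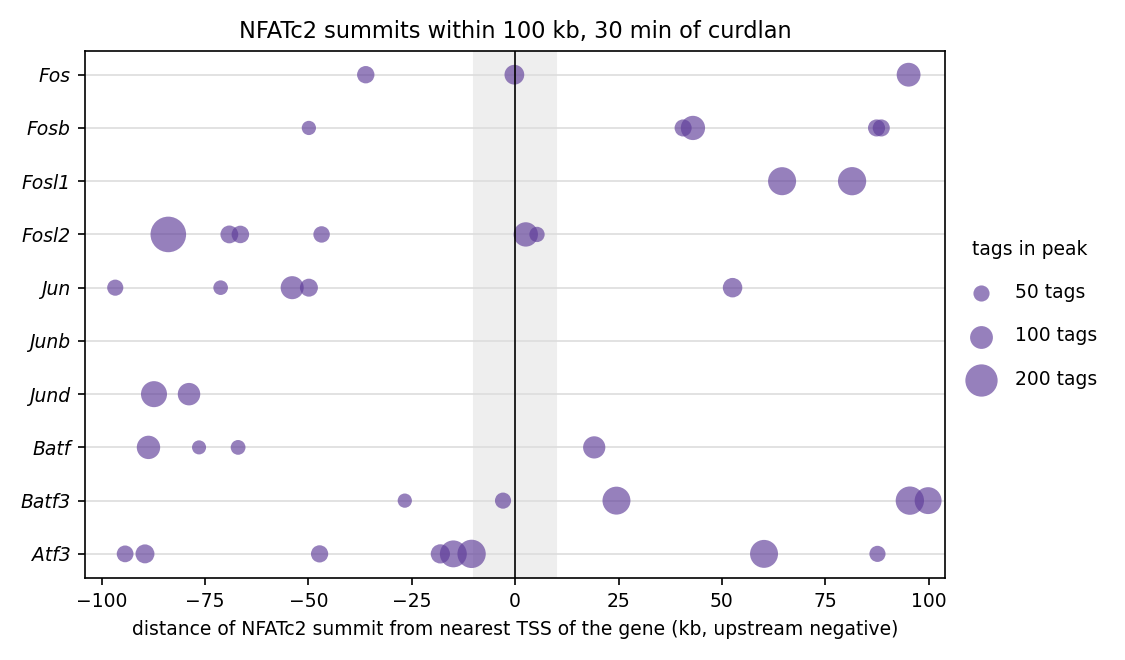
NFATc2 summits within 100 kb of each AP-1 subunit gene after 30 min of curdlan, in 1 library. The horizontal axis is the distance from the nearest TSS of the gene in kb (upstream negative), the area of a point is the number of tags in the peak, and the grey band covers 10 kb to each side. Only Fos, Fosl2 and Batf3 have points inside the band, Junb has none, and Atf3 has 8.

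The 4 Fos genes encode the partners that need a Jun protein to bind DNA. Fos, the classical immediate early gene (chr12:86814840-86818223), had 3 summits. The nearest lay 184 bp upstream of the TSS with 75 tags and an enrichment over the local input background of 12.1-fold, inside the promoter printed above, and it was the only summit within 1 kb of any AP-1 gene. The other summits of Fos had 58 tags at 36.1 kb upstream and 109 tags at 95.2 kb downstream. The latter lay at -29355 bp from the TSS of Jdp2, a gene for another AP-1 partner, which was the nearest gene to it.

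Fosb (chr7:19888070-19895394), a close relative of Fos, had 5 summits, all of them 40.6 kb or more away and none with Fosb as its nearest gene. They lay in introns of Ppp1r13l (39 tags) and Vasp (56 and 113 tags) and in an exon of Gpr4 (56 tags each at 2 summits). Fosl1 (chr19:5447703-5455945), which encodes Fra-1, had 2 downstream summits of 151 and 153 tags at 64.6 and 81.5 kb, both nearest to Snx32. Neither gene thus had NFATc2 close to its start.

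Fosl2 (chr5:32438845-32460204), which encodes Fra-2, had 6 summits and the tallest of all. That summit had 243 tags and an enrichment of 38.3-fold, taller than 96.3% of all NFATc2 peaks, and lay 83.9 kb upstream in an intron of Bre. Fosl2 was also the only AP-1 gene with 2 summits within 10 kb, both in its own introns, at 2569 bp (114 tags) and 5288 bp (45 tags) downstream of the TSS.

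The 3 Jun genes encode the subunits that can pair with one another or with any Fos protein. Jun (chr4:94715725-94718913) had 5 summits of 41 to 102 tags, of which 4 lay 49.9 to 96.7 kb upstream in introns of the transcript BC042782, with Jun as the nearest protein-coding gene. Jund (chr8:73221638-73224515), the Jun gene with the steadiest expression in most cells, had summits of 130 and 97 tags at 87.3 and 78.9 kb upstream, next to Ssbp4 and Lrrc25. Junb (chr8:87500811-87502617), often an antagonist of Jun, had none, and its nearest summit was 316.9 kb away.

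Batf (chr12:87027619-87050037) encodes a small partner without an activation domain that pairs with Jun proteins and with the factors IRF4 and IRF8. It had 4 summits, of which 1 lay in its own intron 19.1 kb downstream of the TSS (95 tags) and the other 3 lay 67.0 to 88.7 kb upstream, at or in Jdp2. The most distant of them (105 tags) was 1417 bp upstream of the Jdp2 TSS.

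Batf3, required for the development of cross-presenting dendritic cells (chr1:192922293-192932822), and Atf3, a stress-induced gene whose product dampens inflammatory genes in myeloid cells (chr1:192994175-193007219), are neighbours with TSSs 84.9 kb apart. Batf3 had 5 summits and Atf3 had 8, more than any other AP-1 gene, and 1.14% of protein-coding genes had 8 or more. The genes shared 4 of these summits, so the counts are not independent. The tallest shared summits had 154 and 139 tags at 10.5 and 14.9 kb upstream of Atf3 and 150 tags at 24.5 kb downstream of Batf3. The summit nearest to Batf3 was 2930 bp upstream with 50 tags.

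The NFATc2 peaks near AP-1 genes were of ordinary height. The median over the 36 distinct summits was 65.5 tags with a range of 38 to 243, and the median over all NFATc2 peaks was 63. There were 18 in introns, 16 between genes and 2 in exons. The nearest gene of any type was an AP-1 gene for 6 of the 36, and the nearest protein-coding gene for 15. With a p-value threshold of 1e-10 in place of the 1e-05 of the deposited list, 9 genes still had a summit within 100 kb, but the 40 pairs became 21 and no gene had a summit within 10 kb. The Fos promoter peak had a MACS p-value of 8.2e-09.

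H3K4me3 was present at every AP-1 gene already before curdlan. All 10 genes had a peak in the NT, curdlan and curdlan with FK506 lists, where 51.5%, 51.2% and 51.1% of protein-coding genes had one. The level of a gene is given in CPM, the tags of all its peaks per 1000000 ChIP tags of the library, with a 95% interval that covers counting error only. A gene is said to have risen or fallen when the ratio of its levels was 1.5-fold or more, which is a rule of size and not a test. For several genes whose direction another measure turned, that value is given too. These measures are tags per kb of peak, which is not centred, and centred fold enrichment. For the latter, the highest fold enrichment over local background that MACS gave among the peaks of the gene was taken in each list. The ratio was then centred on the median gene. By centred fold enrichment, 13.8% of protein-coding genes rose and 14.4% fell with curdlan, against 2.58% and 3.74% by CPM. From curdlan to the FK506 library the shares were 13.8% and 14.1%, against 0.497% and 1.57% by CPM.

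**Figure D2:**
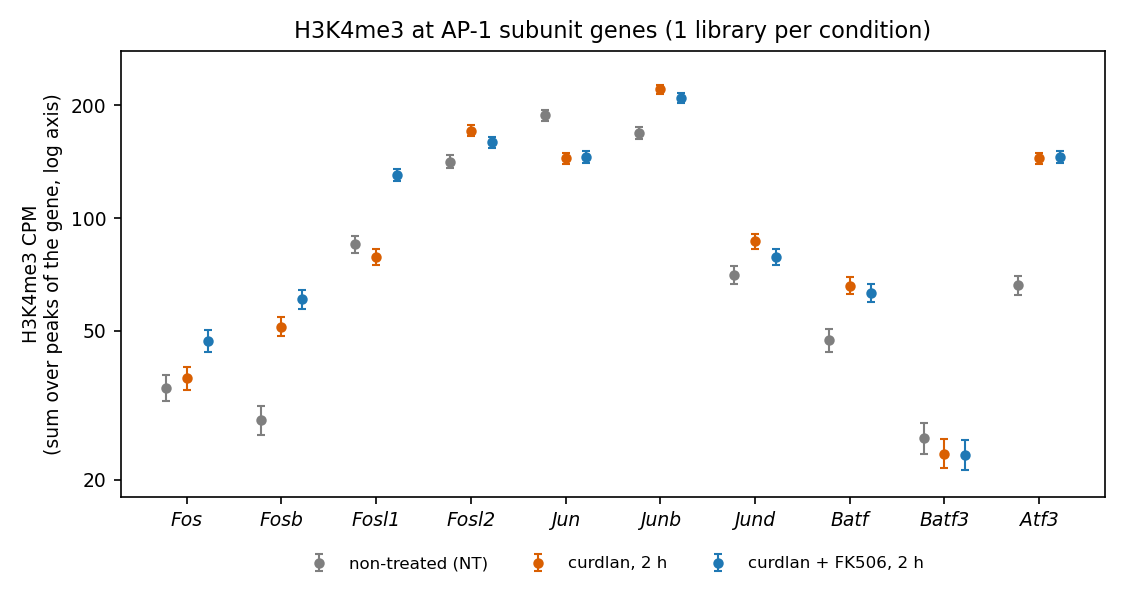
H3K4me3 level of each AP-1 subunit gene in NT cells (grey), after 2 h of curdlan (orange) and after 2 h of curdlan with FK506 (blue), 1 library each. The vertical log axis gives CPM summed over the peaks of the gene, and bars are 95% counting intervals. Atf3 goes from 66.2 in NT to 144.4 and 145.5, Fosb from 28.9 to 51.3 and 60.8 (though lower than NT by centred fold enrichment), and Jun from 188.1 to 144.5 and 145.3.

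With curdlan, 2 of 10 AP-1 genes rose (Atf3 and, by tags but not by fold enrichment, Fosb) and 0 fell, where 2.58% of the 11298 protein-coding genes with peaks in both lists rose and 3.74% fell. These were 291 genes against 423, and 419 against 203 once the ratios were centred on the median gene. The median ratio of the 10 genes was 1.22. Over all these protein-coding genes it was 0.912 (-0.13 on the log2 scale), and 8 of the 10 AP-1 genes lay above that median. Set relative to the median gene, Batf also passed the fold, with a ratio of 1.53 in place of 1.40.

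Atf3 showed the highest ratio. Its level was 66.2 CPM in NT cells, 144.4 in curdlan and 145.5 in the FK506 library. The ratio of curdlan to NT was 2.18 (95% interval 2.04 to 2.34), higher than at 99.3% of protein-coding genes. The peak around its TSS also grew from 6.89 to 8.30 and 9.07 kb, and its downstream edge moved from 3.83 kb to 5.17 and 5.74 kb past the TSS.

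An isolated H3K4me3 peak at the NFATc2 summit 10.5 kb upstream of Atf3 was counted apart from these values. It held 82 tags in NT cells, 181 in curdlan and 172 in the FK506 library, which is 4.92, 8.50 and 8.83 CPM. Its ratio of curdlan to NT was 1.73 (1.32 to 2.27), so the upstream site and the promoter both had more tags in the curdlan libraries than in NT. The upstream peak as called was 1697 bp long in NT, 2929 bp with curdlan and 2792 bp in the FK506 library. Its gain in tags thus came with a longer peak. The tall summit at 14.9 kb upstream lay outside H3K4me3 peaks of all 3 lists.

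Fosb was the other gene past the fold. Its level was 28.9 CPM in NT cells, 51.3 in curdlan and 60.8 in the FK506 library, with a curdlan to NT ratio of 1.78 (1.60 to 1.98). Its peak reached 2.57 kb past the TSS in NT and 3.37 kb with curdlan. The measure of height did not follow. The fold enrichment that MACS gave the Fosb peak was 61.6 in NT and 64.9 with curdlan, and set relative to the median gene this was a ratio of 0.634. With tags per kb of peak, Fosb stayed below the fold and only Atf3 passed.

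Fos, by contrast, gave 35.2 CPM in NT and 37.3 with curdlan, a ratio of 1.06 whose interval (0.952 to 1.18) includes 1. In the FK506 library its level was 47.0, and the peak, which holds the promoter summit of NFATc2, was 3.49, 3.61 and 3.95 kb long in the 3 lists.

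Fosl2 had levels of 141.6, 171.3 and 159.4 CPM in the 3 libraries, in the order NT, curdlan and FK506, and a curdlan to NT ratio of 1.21 (1.15 to 1.27), but 0.788 by centred fold enrichment. Its curdlan peak ran 5.35 kb past the TSS and just covered the NFATc2 summit at 5288 bp, ending 66 bp beyond it. In the NT and FK506 libraries the peak ended before that summit, at 4.17 and 4.56 kb. In every list the Fosl2 peak also held a TSS of Gm10463.

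Fosl1 has a small peak at its TSS and a larger one across its 3′ end that holds the TSS of Ccdc85b. Summed over both, the level was 85.1 CPM in NT cells, 78.8 in curdlan and 130.4 in the FK506 library. The peak at the TSS alone gave 21.2, 28.0 and 28.5, with a curdlan to NT ratio of 1.32 (1.16 to 1.51).

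**Figure D3:**
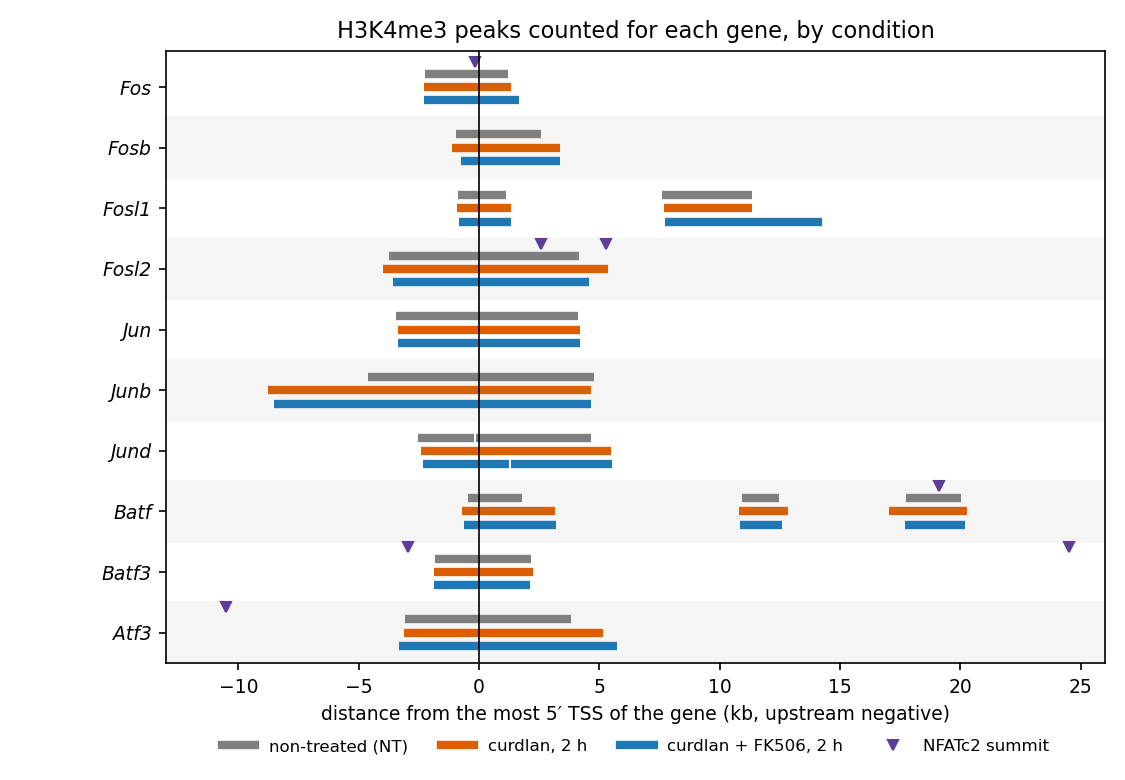
Spans of the H3K4me3 peaks counted for each AP-1 subunit gene in NT (grey), curdlan (orange) and curdlan with FK506 (blue), with NFATc2 summits as triangles. The horizontal axis is the distance from the most 5′ TSS in kb, upstream negative. The Atf3, Batf, Fosb and Fosl2 peaks at the TSS and the peaks of Jund end farther downstream with curdlan than in NT, the Junb peak begins farther upstream, and the second Fosl1 peak is longer with FK506.

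Jun had the lowest ratio of the set, short of the fold, with 188.1 CPM in NT cells, 144.5 in curdlan and 145.3 in the FK506 library. The ratio of curdlan to NT was 0.768 (0.731 to 0.808), above that of 13.7% of protein-coding genes, but 1.02 by centred fold enrichment, and the length of its peak stayed at 7.54 to 7.58 kb. Jund had 70.5, 86.7 and 78.7 CPM and a ratio of 1.23 (1.14 to 1.32). In every list the Jun peak also held TSSs of BC042782 and Gm12703, and the larger Jund peak a TSS of Gm11175.

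Junb had 168.5, 220.9 and 209.2 CPM, and its peak measured 9.37, 13.4 and 13.2 kb, the longest of the set. The greater length came from an upstream peak that was separate in NT and joined to the main one in the other lists. When that neighbour was counted in NT as well, the levels were 207.3, 220.9 and 209.2, and the curdlan to NT ratio went from 1.31 to 1.07 (1.02 to 1.11). Per kb of the peak as listed it was 0.916, where that of the median gene was 0.883. Counting the neighbour in NT was chosen after the data were seen.

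Batf had 3 peaks, whose sum was 47.2, 66.0 and 63.0 CPM, a curdlan to NT ratio of 1.40 (1.28 to 1.53). Per kb of peak its ratio was 0.922, where that of the median gene was 0.883. The gain in CPM lay in the peak at the TSS, with 447 tags in NT cells, 1001 in curdlan and 852 in the FK506 library. That peak alone gave 26.8, 47.0 and 43.8 CPM and a ratio of 1.75 (1.57 to 1.96), past the fold. The intronic peak over the NFATc2 summit gave 15.8, 13.5 and 13.0, with a ratio of 0.851 (0.717 to 1.01). The TSS peak grew from 2.22 to 3.89 and 3.83 kb. Its length ratio of curdlan to NT was 1.75, about the same as the ratio of its tags.

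Batf3 had the lowest levels, 25.8, 23.5 and 23.3 CPM, and a ratio of 0.910 (0.798 to 1.04), close to the median gene. A separate peak over the NFATc2 summit at 2930 bp upstream held 108 tags in NT and was not called in the other lists.

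The genes can be compared with one another only per length of peak. In NT, Jun had the highest density, 25.0 CPM per kb, above Junb (18.0) and Fosl2 (17.9), whose counting intervals overlap. Batf3 had the lowest in every list (6.49 in NT). Atf3 was at 9.61 in NT, not distinguishable from Jund at 9.89, and at 17.4 with curdlan, where its interval overlaps those of Fosl2 (18.4) and Junb (16.5). All 10 genes had a longer summed peak length with curdlan than in NT, as did 62.8% of protein-coding genes. The increase was 25% or more in 3 of 10 (Batf, Junb and Fosb), where 9.17% of protein-coding genes passed it, and 0 of 10 were shorter by the same factor (4.04%). Junb did not pass once its NT neighbour was counted. The median ratio of length was 1.14 for AP-1 genes and 1.03 for all, and the curdlan library was the deepest of the 3. The part of depth in the lengths was not tested. From curdlan to the FK506 library, 1 of 10 was longer by 25% or more (Fosl1, against 2.82%) and 0 were shorter (6.15%), and with neighbouring peaks counted in all lists 0 were longer by that much. From NT to the FK506 library these counts were 4 (Fosl1, Junb, Batf and Atf3, against 6.23%) and 0 (5.28%), and Fosl1 and Junb no longer passed with neighbouring peaks counted in all lists, which left 2.

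The curdlan to FK506 comparison asks what the inhibitor changed on top of curdlan. The curdlan library is the reference here and the numerator of the comparison above, so the 2 sets of ratios are not independent. The ratio of curdlan with FK506 to curdlan lay between 0.9 and 1.1 for 7 of 10 genes, close to the 75% of protein-coding genes in that range. The median of the 10 genes was 0.998, and the median of all 11277 protein-coding genes was 0.970. For Atf3 the ratio was 1.01 (0.957 to 1.06), though 0.764 by centred fold enrichment. For Jun it was 1.01 (0.955 to 1.06), though 0.856 by centred fold enrichment. For Batf it was 0.954 (0.883 to 1.03), though 1.09 per kb of peak.

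Fosl1 was the 1 gene that rose with FK506 (0.497% of protein-coding genes did) and 0 fell (1.57%). Its ratio of 1.66 (1.56 to 1.76) came with a peak at Ccdc85b that ran from 3.66 kb with curdlan to 6.54 kb with FK506 and there took in the start of Fibp. With the neighbouring peaks counted in all lists the Fosl1 levels were 144.6, 128.1 and 130.4 and the ratio was 1.02 (0.964 to 1.07), and the peak at the TSS alone also gave 1.02. The next ratios were those of Fos at 1.26 (1.14 to 1.39) and Fosb at 1.18 (1.09 to 1.29), higher than at 98.8% and 97.7% of protein-coding genes but short of the fold. The lowest was that of Jund, 0.909 (0.849 to 0.973), but 1.11 by centred fold enrichment.

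**Figure D4:**
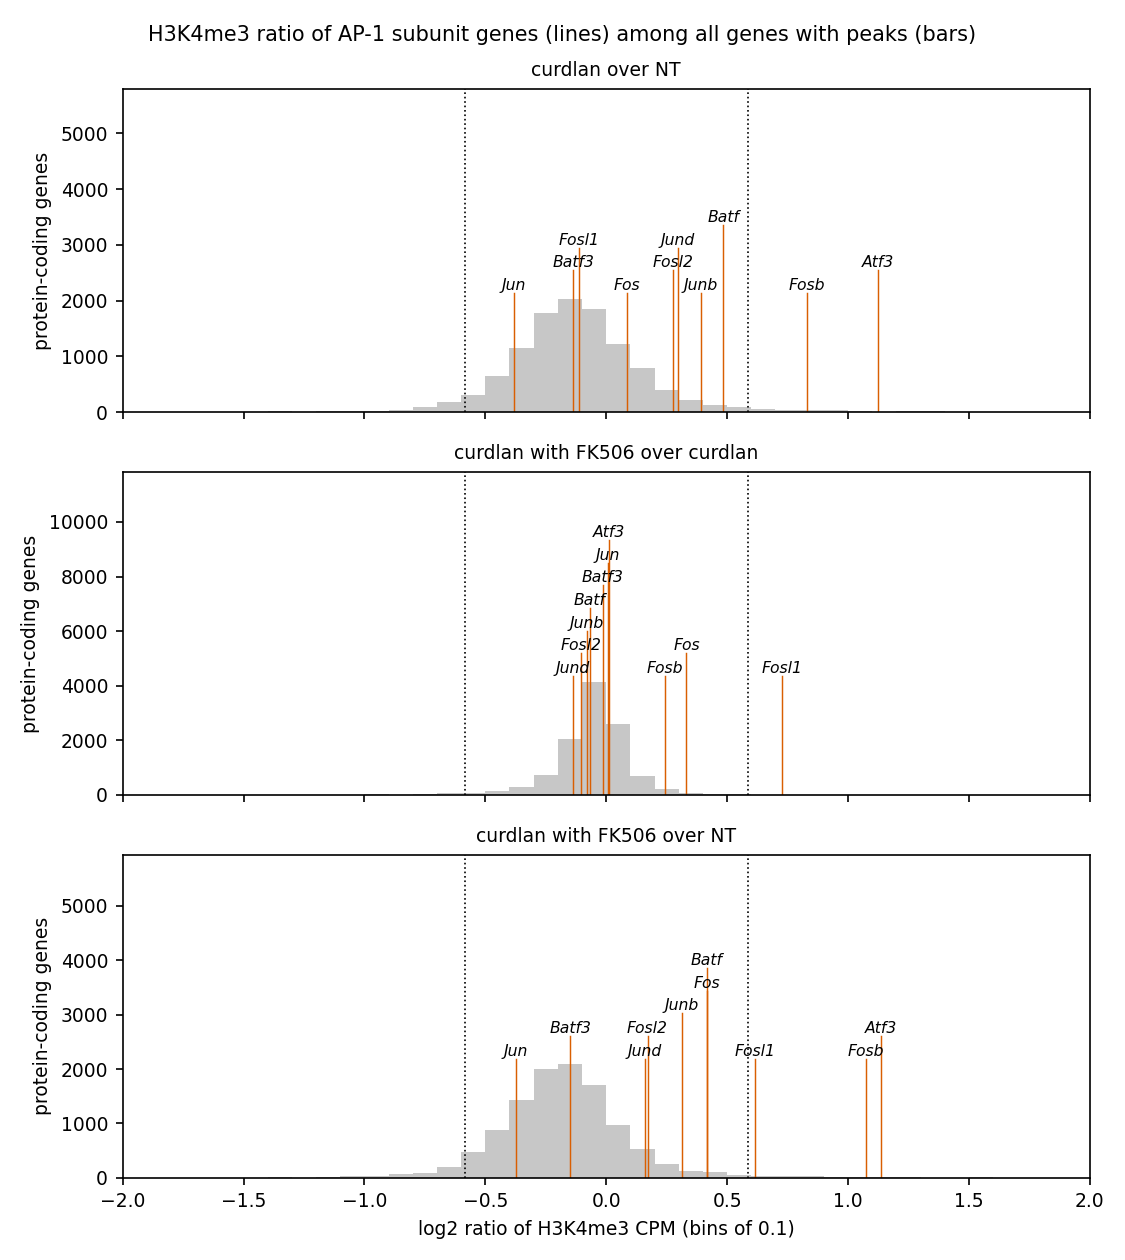
Log2 ratio of H3K4me3 CPM for all protein-coding genes with peaks in both lists (grey bars, number of genes per bin of 0.1) and for the AP-1 subunit genes (orange lines), for curdlan over NT, curdlan with FK506 over curdlan and curdlan with FK506 over NT. Dotted lines mark the fold of 1.5. Atf3 and Fosb lie past the line in the first and last panels, and Fosl1 in the middle and last panels, where its peak is joined to that of a neighbouring gene and does not pass once that neighbour is counted in every list.

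Set against NT, the FK506 library had 3 of 10 genes past the fold (Atf3, Fosb and Fosl1), where 1.68% of protein-coding genes rose, and 0 fell (4.7%). The ratios were 2.20 (2.05 to 2.36) for Atf3, 2.10 (1.89 to 2.35) for Fosb, though 0.947 by centred fold enrichment, and 1.53 (1.44 to 1.64) for Fosl1, the latter 0.902 (0.852 to 0.954) with the neighbouring peaks counted in all lists. The median of all genes was 0.882 (-0.18 on the log2 scale). Over all genes 190 rose and 530 fell, and 336 rose and 198 fell once centred on that median. Relative to it, Fos and Batf also passed, each at 1.51.

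Of the 36 NFATc2 summits near AP-1 genes, 16 lay in an H3K4me3 peak of at least 1 list (44.4%, against 26.7% of all NFATc2 summits) and 13 in a peak of every list. Many of these peaks belong to other genes, such as the promoters of Vasp and Ppp1r13l near Fosb. Only 3 AP-1 genes (Fos, Fosl2 and Batf) had a summit inside a peak that was counted for the gene itself. At the summit 95.2 kb downstream of Fos, a peak of 75 tags was called in NT and none in the other lists. At the summit 53.9 kb upstream of Jun, the peak held 329 tags in NT cells, 342 in curdlan and 276 in the FK506 library.

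The peak over the Batf summit next to the Jdp2 promoter held 502 tags in NT and 1812 and 2039 in the other lists, where it was 6032 and 6601 bp long in place of 2113 bp. Summed over all peaks of Jdp2, whose protein pairs with Jun and represses AP-1 targets, the level was 86.6, 85.1 and 104.7 CPM. Jdp2 had 2 peaks in NT and 1 in each of the other lists. Its ratio of curdlan to NT was 0.983, so the longer curdlan peak held about the CPM of the 2 NT peaks together. The ratio of the FK506 library to NT was 1.21 (1.13 to 1.29).

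Few genes around the AP-1 family passed the fold, and over all protein-coding genes 2.58% rose and 3.74% fell with curdlan. Of 23 other bZIP genes that can pair with AP-1 proteins, 22 had peaks, 1 rose and 0 fell, with a median ratio of 0.994. An NFATc2 summit lay within 100 kb of 20 of the 23, against 55.4% of all protein-coding genes. The gene that rose was Cebpb, a regulator of myeloid cytokine genes, with 16.8, 25.8 and 24.1 CPM in the same order and a ratio of 1.54 (1.33 to 1.78). Of 16 kinases and factors that act on AP-1 genes, such as the MAP kinases and SRF, 0 rose and 0 fell with curdlan, with a median of 0.883. Mapk14, named after its values were seen, was the 1 gene that fell from NT to the FK506 library, at 85.9, 59.4 and 53.8 CPM. Over all protein-coding genes 4.7% fell. The Mapk14 level was a sum over 3 peaks in NT but over 2 peaks in each of the other lists.

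Of 5 factors that share composite sites with AP-1 (Irf4, Irf8, Nfatc1, Nfatc2 and Nfatc3), all had peaks. All had a summit within 100 kb (55.4% of protein-coding genes), and 1 rose with curdlan (2.58%). That was Irf8, which works with Batf3 in dendritic cells, at 29.9, 46.6 and 48.1 CPM and a ratio of 1.56 (1.40 to 1.74). The protein-coding genes closest to the Atf3 pattern over the 3 levels, by Euclidean distance in log2 CPM among 11198 genes, were Cd9, Zc3h12a, Tulp2, Rabgef1 and Traf1, at distances of 0.174 to 0.324. Cd9, a tetraspanin of the cell surface, had 71.8, 151.5 and 135.0 CPM, and Zc3h12a, an RNase that degrades cytokine mRNAs, had 77.4, 134.2 and 135.3 CPM.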

How the data were processed

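Peak lists of 4 ChIP-seq libraries of D1 cells were used, 1 for NFATc2 and 3 for H3K4me3, each called by the authors against its own input with MACS 1.4.2 per the file headers, without pooling, after mapping to mm9 with Bowtie. The p-value threshold was 1e-05 and the band width 300 bp for NFATc2 and 1000 bp for H3K4me3. The header totals of 14377535 (NFATc2), 16662316 (NT), 21289349 (curdlan) and 19468498 (curdlan with FK506) ChIP tags are those left after the limit of 1 tag per position.

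The deposited count of tags in each peak is not normalized. The deposited score is the negative log10 of the p-value multiplied by 10, limited at 3100. The deposited fold enrichment is the ratio over the local input background, and the FDR in percent is the authors' MACS estimate from exchanged samples.

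From these files, tags per 1000000 header tags (CPM) were summed per gene with the TSSs of GENCODE vM1 on NCBIM37, the assembly of mm9. Intervals of ratios are exact conditional binomial intervals and those of levels exact Poisson intervals, both at 95%, and cover counting error only. With 1 library per condition no p-value was computed. Promoter and summit sequences came from the NCBIM37 genome. The members and lists were chosen with earlier results of these data known. All 10 members were to be named, from each list at most 4 genes past the fold with curdlan, and for the member with the highest curdlan ratio the 5 genes most like it. The symbols Spi1 and Cebpd had no match in the annotation. Python 3.11.15, pandas 2.3.3 and scipy 1.17.1 were used, and the overlap and interval code was tested on simulated data.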

Additional observations from a re-analysis of the deposited data

How the results depend on the processing

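No paired analysis was possible because each condition had 1 ChIP library. With a p-value of 1e-10, the 40 gene and summit pairs became 21 and the genes with a summit within 10 kb became 0. With only summits whose nearest TSS was that of an AP-1 gene, 4 genes and 8 pairs were left. A window of 50 kb left 17 pairs. The genes past the fold from NT to curdlan were 1 with tags per kb of peak, 5 with a fold 25% above 1 and 1 with a fold of 2. From curdlan to the FK506 library they were 0 with peaks at the TSS only, with tags per kb of peak, with a fold of 2 and with neighbouring peaks counted in all lists (added after the data were seen), and 2 with the fold 25% above 1. From NT to the FK506 library they were 5 with the tags in peaks as the total, 5 centred on the median gene and 6 with the fold 25% above 1. The median peak length with curdlan was 7.72 kb, or 4.33 kb with the longest peak of each gene. Ratios of single genes changed side of 1 in 25 cases, most of them with centred fold enrichment (10) or tags per kb of peak (7), which include Fosl2, Jun, Batf and Junb from NT to curdlan. Among the genes past the fold, Fosb changed sign with the centred fold enrichment, to -0.66 for curdlan over NT and -0.079 for the FK506 library over NT on the log2 scale, and Fosl1 to -0.15 for the FK506 library over NT with neighbouring peaks counted in all lists. The cause was not tested, except that the Fosl1 change follows from counting the peak of Fibp in every list. The presence of peaks at all 10 genes held under each alternative run. Of 210 values of single genes under the alternatives, 129 stayed inside the counting interval of the reported value and 78 moved outside it. The other 3 are the sign changes of Fosb and Fosl1 given above. The 129 include values that an alternative left unchanged, as the limit of 5% on the FDR did for all these genes. A single library per condition limits what a difference can show.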

Other observations

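Among the 10 dendritic and myeloid markers used to check the cell type, Irf8 rose and Ciita fell from NT to curdlan. Both were named after their values were seen, and over all protein-coding genes 2.58% rose and 3.74% fell. Ciita, the master regulator of MHC class II genes, had 265.4 CPM in NT cells, 165.8 in curdlan and 193.1 in the FK506 library, a curdlan to NT ratio of 0.625 (0.597 to 0.653). Clec7a, the dectin-1 gene, had 77.7, 60.0 and 55.1 CPM, short of the fold.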
